A study of Saccharomyces cerevisiae with 12 samples.

Results

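The 7 genes described here make and break down trehalose in the yeast Saccharomyces cerevisiae. They were taken by systematic identifier from the 7126 genes of the count data: TPS1 (YBR126C), TPS2 (YDR074W), TSL1 (YML100W), TPS3 (YMR261C), NTH1 (YDR001C), NTH2 (YBR001C), and ATH1 (YPR026W). All 7 were measured in all 12 libraries, with 405 to 5587 reads per gene and library, and all 7 passed the filter on low counts that left 6044 genes to test. The libraries came from steady-state chemostat cultures of 3 α-amylase-secreting strains. AAC is the original strain, and the labels give it a low protein productivity. MH34 was isolated from AAC and B184 from MH34 after UV mutagenesis and droplet screening, and the labels give them a medium and a high productivity. Each strain was grown at a dilution rate, which sets the specific growth rate in a chemostat, of 0.1/h and of 0.2/h, with 2 biological replicates in each of the 6 groups. All 3 strains are haploid MATa derivatives of CEN.PK in which most of TPI1, the triose phosphate isomerase gene, is replaced by a KanMX4 marker. They all carry the α-amylase gene between the TPI1 promoter and terminator on a plasmid selected by the POT1 gene of fission yeast. Each evolved strain is a single isolate, so its mutations as a whole are compared with its parent. Ethanol was added to the bioreactors of MH34 and B184 at 0.1/h to stop oscillations and is not named for AAC, so at 0.1/h the strain and the ethanol cannot be told apart. The comparison of 0.2/h with 0.1/h within MH34 and within B184 carries the same added ethanol, and there the dilution rate and the ethanol cannot be told apart either.

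Trehalose is a nonreducing disaccharide of glucose that yeast stores when growth is slow or glucose runs out, and that protects proteins and membranes under heat and drying. Tps1 joins UDP-glucose and glucose 6-phosphate to trehalose 6-phosphate, Tps2 removes the phosphate, and the large proteins Tsl1 and Tps3 are the regulatory subunits of the same complex. The neutral trehalases Nth1 and Nth2 split trehalose in the cytosol, and Nth1 is activated by protein kinase A together with 14-3-3 proteins. Ath1, the acid trehalase, splits trehalose outside the cytosol and is needed for growth on external trehalose. Many genes of trehalose synthesis belong to the general stress response, which the transcription factors Msn2 and Msn4 turn on through the stress response element.

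The libraries held 6040221 to 10785960 counted reads (median, 9026748). TPI1 still received 132 to 637 reads per library, and the plasmid holds its promoter and terminator. Of the MATa markers, the receptor gene STE2 was at 321 to 1029 CPM and the protease gene BAR1 at 197 to 664 CPM, against 19.3 to 36.6 CPM for STE3, the receptor gene of the other mating type. CPM stands for counts scaled to the effective library size by edgeR's trimmed mean of M values (TMM). Unless stated otherwise, the tests are from edgeR's quasi-likelihood model fitted to all 6 groups at once, fold changes are on the log2 scale with their standard error (SE), and a gene was called where its p, adjusted by the Benjamini-Hochberg method over 6044 genes, was below 0.05.

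The replicates of AAC at 0.1/h stood apart for these genes. Replicate 2 was above replicate 1 for all 7, from 1.17-fold for TPS3 to 1.97-fold for TSL1, where the median difference over all genes in that group was 1.12-fold. In the other 5 groups, the ratio of replicate 2 to replicate 1 for the 7 genes lay between 0.795 and 1.19. Results that rest on AAC at 0.1/h are therefore also given without each of its libraries.

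The upstream regions of the genes differ in how many copies of the stress response element they hold. The core CCCCT, or AGGGG on the other strand, was searched in the window from 500 to 201 bases before each start codon in the RefSeq sequence of assembly R64, which is the reference strain and not the strains studied. TPS1 held 6 copies, TPS2 held 4, TSL1 held 3, TPS3 and NTH1 held 2 each, ATH1 held 1, and NTH2 held 0. Of 6000 such windows, 22.4% held at least 1 copy, 3.77% at least 2, and 0.833% at least 3. The stretches that span the copies are shown with 6 bases on each side, read 5′ to 3′ toward the gene, with the copies in capitals, because the genes with the most and the fewest copies are compared below. A copy is a match of letters and not a shown binding site, and no binding was measured here.
TPS1: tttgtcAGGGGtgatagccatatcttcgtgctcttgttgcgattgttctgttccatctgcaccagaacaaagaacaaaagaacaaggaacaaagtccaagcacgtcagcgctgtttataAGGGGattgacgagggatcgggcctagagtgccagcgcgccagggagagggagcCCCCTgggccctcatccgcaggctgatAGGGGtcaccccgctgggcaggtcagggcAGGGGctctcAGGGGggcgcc
TPS2: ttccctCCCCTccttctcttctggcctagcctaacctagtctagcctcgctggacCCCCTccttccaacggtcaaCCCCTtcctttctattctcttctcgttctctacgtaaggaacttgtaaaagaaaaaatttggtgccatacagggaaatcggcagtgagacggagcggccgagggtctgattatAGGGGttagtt
TSL1: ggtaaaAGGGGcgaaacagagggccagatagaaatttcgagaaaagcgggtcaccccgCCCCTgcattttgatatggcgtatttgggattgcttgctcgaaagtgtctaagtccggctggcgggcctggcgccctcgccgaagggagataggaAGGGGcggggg
TPS3: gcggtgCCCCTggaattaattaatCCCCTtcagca
NTH1: acgaagCCCCTtatCCCCTagttac
ATH1: tctttgCCCCTcaaaat
The stretch of TPS1 lies at chrII:490621-490870 on the minus strand, that of TPS2 at chrIV:593397-593595 on the plus strand, and that of TSL1 at chrXIII:70240-70403 on the plus strand. That of TPS3 lies at chrXIII:793576-793610 and that of NTH1 at chrIV:452807-452831, both on the minus strand, and that of ATH1 at chrXVI:615069-615085 on the plus strand. The windows of TPS1, TSL1, TPS3, and NTH2 also overlap the annotated genes YBR126W-A, YML100W-A, YMR262W, and YBR002C.

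**Figure D1:**
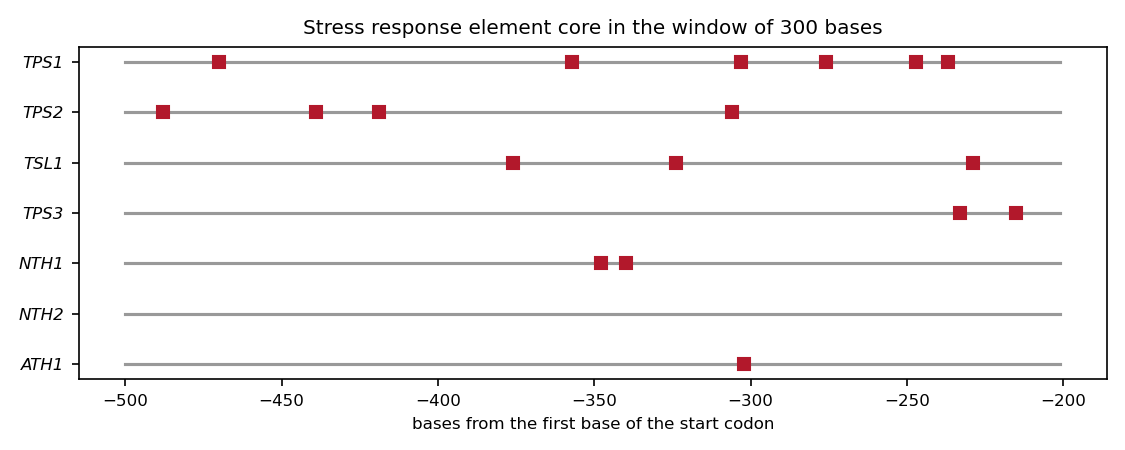
Position of each copy of the stress response element core in the 7 upstream windows. The x axis gives the distance in bases from the start codon, each gray line is the window of 1 gene from 500 to 201 bases before it, and each red square is 1 copy on either strand, from 6 in TPS1 to 0 in NTH2.

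The genes themselves each have 1 coding exon and no overlapping annotated gene in R64. TPS1 lies at chrII:488905-490392 on the minus strand, TPS2 at chrIV:593893-596583 on the plus strand, TSL1 at chrXIII:70624-73920 on the plus strand, and TPS3 at chrXIII:790205-793369 on the minus strand. NTH1 lies at chrIV:450220-452475 and NTH2 at chrII:238941-241283, both on the minus strand, and ATH1 at chrXVI:615379-619014 on the plus strand. The paralogs NTH1 and NTH2 share no exact run longer than 33 bases, and TSL1 and TPS3 none longer than 15. How reads that fit several genes were counted is not given in the sources used here.

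Per kilobase of coding length, TPS1 was the most abundant of the 7, with a median over the 12 libraries of 306 CPM per kb. TPS2 followed at 152, NTH1 at 113, and TSL1 at 91.3 CPM per kb. ATH1 at 49.1, NTH2 at 48.2, and TPS3 at 47.5 CPM per kb were the lowest. The mean level of every one of the 7 genes was lowest in AAC at 0.2/h. It was highest in B184 at 0.1/h for TPS1, TPS2, TSL1, NTH1, and NTH2, in MH34 at 0.1/h for TPS3, and in AAC at 0.1/h for ATH1.

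TPS1, the synthase gene, was at 409 and 625 CPM in AAC, 541 and 546 CPM in MH34, and 698 and 717 CPM in B184 at 0.1/h. At 0.2/h it was at 298 and 291 CPM in AAC, 421 and 411 CPM in MH34, and 457 and 454 CPM in B184. Both AAC libraries at 0.2/h lay below the other 10 libraries. In the order of the group means, the level fell from B184 at 0.1/h over MH34 and AAC at 0.1/h to B184, MH34, and AAC at 0.2/h. AAC at 0.1/h overlapped its neighbors MH34 at 0.1/h and B184 at 0.2/h. B184 and MH34 at 0.2/h did not overlap but were not called different.

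TPS2, the phosphatase gene, showed the same low point. It was at 436 and 750 CPM in AAC, 468 and 471 CPM in MH34, and 576 and 644 CPM in B184 at 0.1/h. At 0.2/h it was at 240 and 232 CPM in AAC, 373 and 352 CPM in MH34, and 382 and 380 CPM in B184. The 2 AAC libraries at 0.1/h held both the highest value of the 12 and a value below all other libraries at that rate, and so overlapped its neighbors in the order, B184 and MH34 at 0.1/h.

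The regulatory subunit genes differed from each other. TSL1 was at 237 and 467 CPM in AAC, 399 and 390 CPM in MH34, and 425 and 507 CPM in B184 at 0.1/h, and at 145 and 143 CPM in AAC, 298 and 237 CPM in MH34, and 290 and 304 CPM in B184 at 0.2/h. It spanned the range from 143 to 507 CPM. TPS3 was at 126 and 147 CPM in AAC, 181 and 178 CPM in MH34, and 156 and 171 CPM in B184 at 0.1/h, and at 132 and 133 CPM in AAC, 149 and 144 CPM in MH34, and 153 and 152 CPM in B184 at 0.2/h. Its range of 126 to 181 CPM was the narrowest of the 7 genes, and its lowest library was replicate 1 of AAC at 0.1/h.

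Of the trehalase genes, NTH1 was at 236 and 333 CPM in AAC, 351 and 360 CPM in MH34, and 375 and 390 CPM in B184 at 0.1/h. At 0.2/h it was at 186 and 176 CPM in AAC, 257 and 228 CPM in MH34, and 241 and 252 CPM in B184. The evolved strains were above AAC without overlap at both rates. NTH2 was at 92.8 and 128 CPM in AAC, 140 and 131 CPM in MH34, and 157 and 169 CPM in B184 at 0.1/h, and at 50.9 and 44.2 CPM in AAC, 104 and 101 CPM in MH34, and 108 and 118 CPM in B184 at 0.2/h. Here, too, both evolved strains were above AAC at each rate without overlap, as 43.4% (MH34) and 30% (B184) of all genes were at 0.1/h. In the order of its means, AAC at 0.1/h fell between B184 and MH34 at 0.2/h and overlapped both.

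ATH1, the acid trehalase gene, was at 144 and 256 CPM in AAC, 191 and 181 CPM in MH34, and 196 and 198 CPM in B184 at 0.1/h. At 0.2/h it was at 83.9 and 74.3 CPM in AAC, 175 and 149 CPM in MH34, and 175 and 185 CPM in B184. All 8 evolved libraries were within 149 to 198 CPM, whatever the rate, and the AAC libraries held both the highest and the lowest values of the 12.

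**Figure D2:**
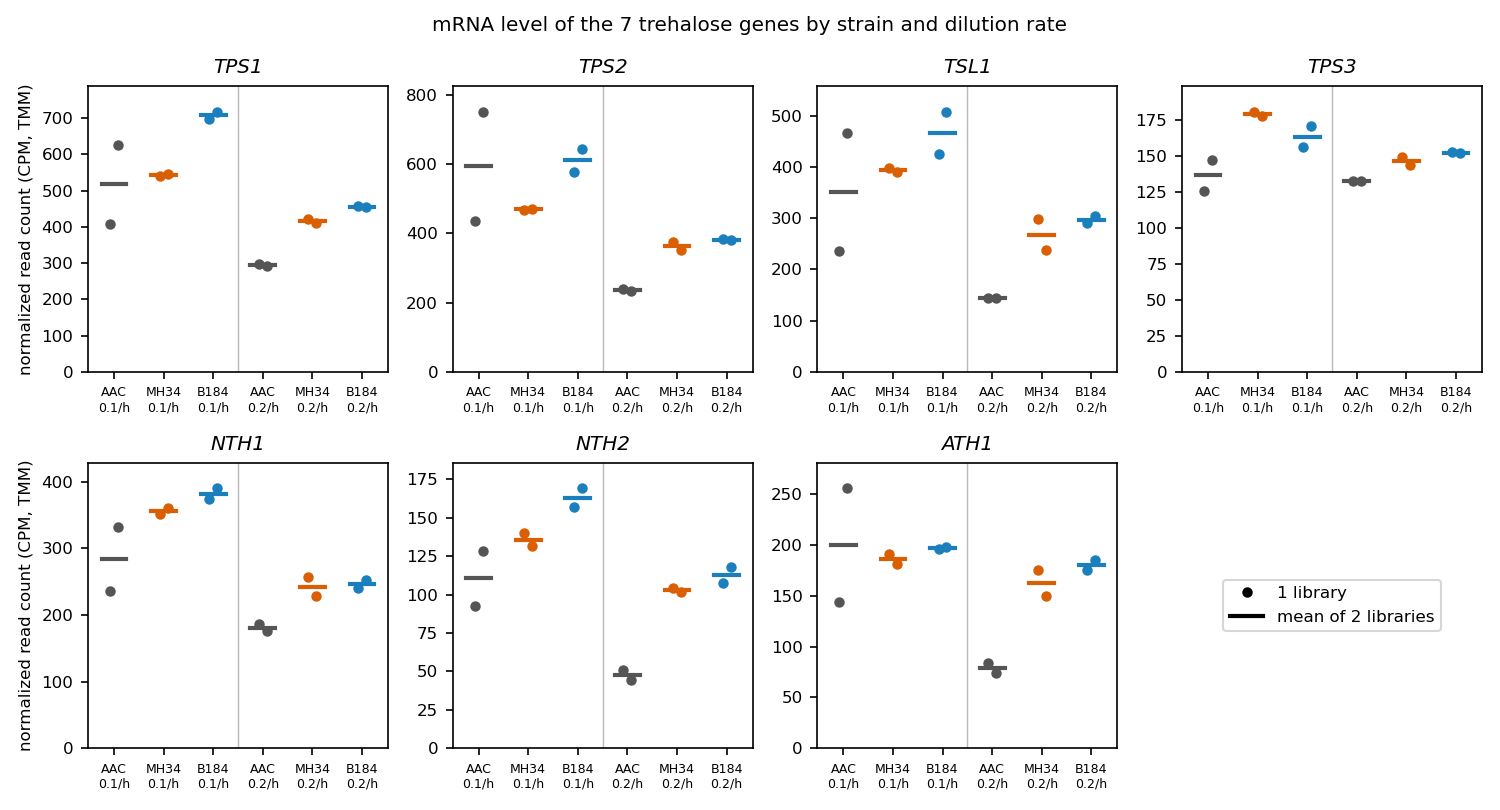
Normalized read count of each of the 7 genes (y axis, CPM after TMM normalization, starting at 0) in the 6 groups of strain and dilution rate (x axis), where each point is 1 library and each line the mean of 2. For every gene the mean of AAC at 0.2/h was the lowest of the 6, and the points of AAC at 0.1/h lie far apart for all genes but TPS3.

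Each evolved strain was compared with AAC at 0.2/h, where no ethanol addition is named. In MH34, 6 of the 7 genes were upregulated (background, 17.4% of 6044 genes higher and 15.7% lower), and in B184 the same 6 were upregulated (background, 18.4% higher and 17.7% lower). The exception was TPS3. For all 7 genes, TPS3 included, the 4 libraries of the evolved strains lay above both AAC libraries, which held for 29.1% of all genes tested. The trehalase genes NTH2 and ATH1 had the largest differences, and of the synthesis genes TSL1 had the largest.

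NTH2 was higher in MH34 by 1.11 ± 0.13 on the log2 scale (edgeR adjusted p = 0.000138) and in B184 by 1.25 ± 0.13 (edgeR adjusted p = 5.2e-05). ATH1 was higher by 1.04 ± 0.22 in MH34 (edgeR adjusted p = 0.00826) and by 1.19 ± 0.22 in B184 (edgeR adjusted p = 0.00405). NTH1, the main neutral trehalase gene, was higher by a smaller step, 0.42 ± 0.13 in MH34 (edgeR adjusted p = 0.0287) and 0.44 ± 0.13 in B184 (edgeR adjusted p = 0.0205). On the synthesis side, TSL1 had a fold change of 0.89 ± 0.27 in MH34 (edgeR adjusted p = 0.0377) and 1.04 ± 0.27 in B184 (edgeR adjusted p = 0.0192). TPS2 was higher by 0.62 ± 0.19 and 0.69 ± 0.19, and TPS1 by 0.50 ± 0.15 and 0.63 ± 0.15, in MH34 and B184. The fold changes of TPS3 were 0.14 ± 0.08 (edgeR adjusted p = 0.193) and 0.20 ± 0.08 (edgeR adjusted p = 0.0690), and neither was called.

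The sizes of these differences depended little on single libraries, but the calls did. Over all genes, too, fewer were called when 1 library of the compared groups was left out. With 1 library of the compared groups left out in turn, 1 to 3 of the 7 genes were called in MH34 and 3 each time in B184. NTH2 was called each time in MH34, and TPS1, NTH2, and ATH1 each time in B184. The lowest count, 1 gene in MH34, was without replicate 2 of AAC, and the counts without replicate 1 of AAC, without replicate 1 of MH34, and without replicate 2 of MH34 were 2, 2, and 3. The fold change of TSL1 in MH34 lay between 0.72 and 1.06 over these fits, and that of TPS1 in B184 between 0.61 and 0.65. When both libraries of AAC at 0.1/h were left out of the fit, 6 genes were called in MH34 and 7 in B184. In that fit 2370 (MH34) and 2568 (B184) of 6031 genes were called in either direction.

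**Figure D3:**
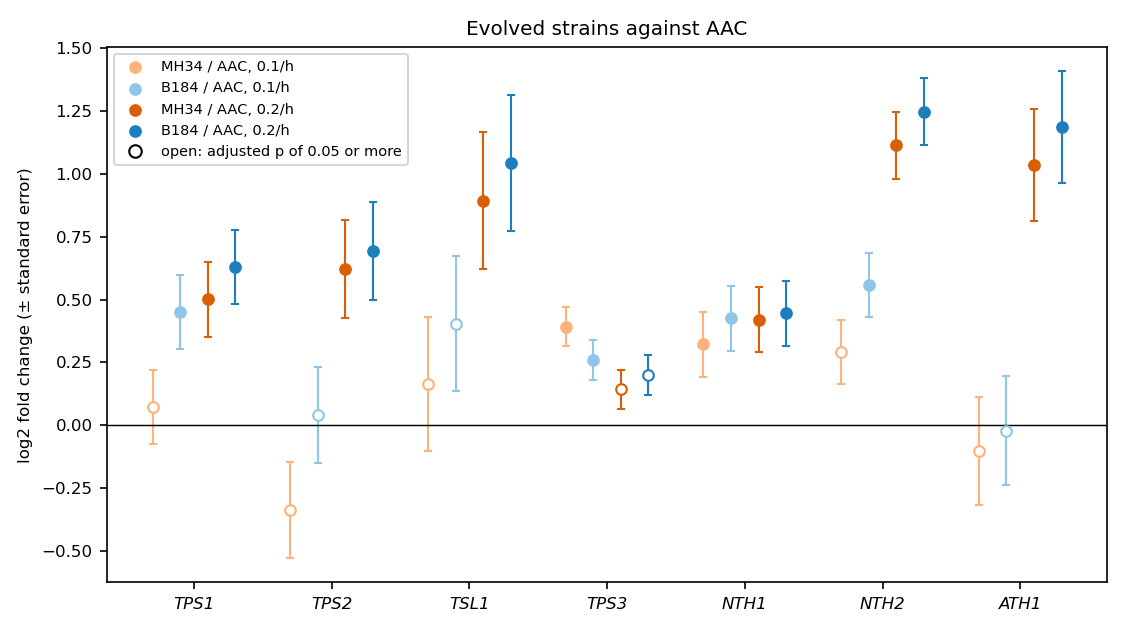
Log2 fold change of each gene in MH34 and B184 against AAC at the same dilution rate (y axis, with SE bars), where filled points had an adjusted p below 0.05 and open points did not. At 0.2/h all values lie above 0 and only TPS3 is open in both strains, while at 0.1/h the values range from −0.34 (TPS2, MH34) to 0.56 (NTH2, B184).

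At 0.1/h, fewer of the 7 genes differed from AAC. In MH34, 2 were called, both higher (background, 35.5% higher and 33.3% lower): TPS3 by 0.39 ± 0.08 (edgeR adjusted p = 0.00103) and NTH1 by 0.32 ± 0.13 (edgeR adjusted p = 0.0437). In B184, 4 were called, all higher (background, 16.5% higher and 20.4% lower): NTH2 by 0.56 ± 0.13, TPS1 by 0.45 ± 0.15, NTH1 by 0.43 ± 0.13, and TPS3 by 0.26 ± 0.08, with edgeR adjusted p of 0.00658, 0.0341, 0.0248, and 0.0272. The values of ATH1 were −0.10 ± 0.22 in MH34 and −0.02 ± 0.22 in B184, and those of TPS2 were −0.34 ± 0.19 and 0.04 ± 0.19, none of them called.

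These values turned on which AAC library was used. With both AAC libraries, the median fold change of the 7 was 0.16 in MH34 and 0.40 in B184. Without replicate 2 of AAC, the medians were 0.51 and 0.69. Without replicate 1 of AAC, they were −0.20 and 0.15, and TPS1 had a fold change of −0.20 in MH34. In B184 that fit gave 0.35 for NTH2, −0.30 for TPS2, and −0.37 for ATH1. Without replicate 1 or replicate 2 of B184, 2 and 0 genes were called in B184. Without replicate 1 or replicate 2 of MH34, 1 gene was called in MH34. TPS3 in MH34 was the only gene called at 0.1/h in every one of these fits, with values from 0.29 to 0.51. Over all genes, too, fewer were called in B184 without 1 of its libraries, and in MH34 without 1 of its libraries. How the 2 AAC cultures came to differ was not tested.

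In AAC, the transcripts of 6 of the 7 genes, all but TPS3, were lower at the faster dilution rate (background, 35.5% lower). ATH1 fell by 1.34 ± 0.22 on the log2 scale, TPS2 by 1.33 ± 0.20, TSL1 by 1.29 ± 0.27, and NTH2 by 1.22 ± 0.14. TPS1 fell by 0.81 ± 0.15 and NTH1 by 0.65 ± 0.13. The edgeR adjusted p of these 6 lay between 1.4e-05 (NTH2) and 0.00323 (TSL1). TPS3 had a value of −0.04 ± 0.08. The same 6 genes were called in each of the 4 fits that left out 1 AAC library, but their sizes moved: the value of TSL1 was −0.72 without replicate 2 of AAC at 0.1/h and −1.70 without replicate 1, and that of ATH1 was −0.86 and −1.69. With library totals in place of TMM, TPS3 was also called, at −0.19, where the median of all genes moved by −0.15.

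In the evolved strains, the values between rates of TPS1, TPS2, TSL1, NTH2, and ATH1 were nearer to 0 than in AAC, and those of TPS3 were farther from 0. For TPS1 in B184 this order rested on replicate 2 of AAC at 0.1/h. Without that library the AAC value of TPS1 was −0.47, beside −0.63 in B184. In MH34, 3 genes fell (background, 13.3% lower): NTH1 by 0.55 ± 0.13, NTH2 by 0.40 ± 0.13, and TPS3 by 0.29 ± 0.08, with edgeR adjusted p of 0.0118, 0.0403, and 0.0199. In B184, 4 genes fell (background, 32.7% lower): TPS2 by 0.68 ± 0.19, TPS1 by 0.63 ± 0.15, NTH1 by 0.63 ± 0.13, and NTH2 by 0.53 ± 0.13, with edgeR adjusted p of 0.0107, 0.00278, 0.00115, and 0.00326. TSL1 had values of −0.56 ± 0.27 in MH34 and −0.65 ± 0.27 in B184, and ATH1 had values of −0.20 ± 0.22 and −0.13 ± 0.22, none of them called. NTH1 had nearly the same step in all 3 strains, and it was the only gene besides NTH2 to be called in all 3. The value of NTH1 in AAC lay between −0.87 and −0.38 when 1 AAC library was left out. In MH34 and in B184, fewer of all genes were called between rates when 1 library of that strain was left out. Leaving out replicate 1 of MH34 at 0.1/h, its replicate 2, or replicate 2 of MH34 at 0.2/h gave 0 calls in MH34. In B184 the count was 3 or 4 whichever library was left out, with TPS1, NTH1, and NTH2 called each time. Without both libraries of AAC at 0.1/h in the fit, 6 genes fell in MH34 and 5 in B184. In that fit 2190 (MH34) and 4250 (B184) of 6031 genes were called in either direction.

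**Figure D4:**
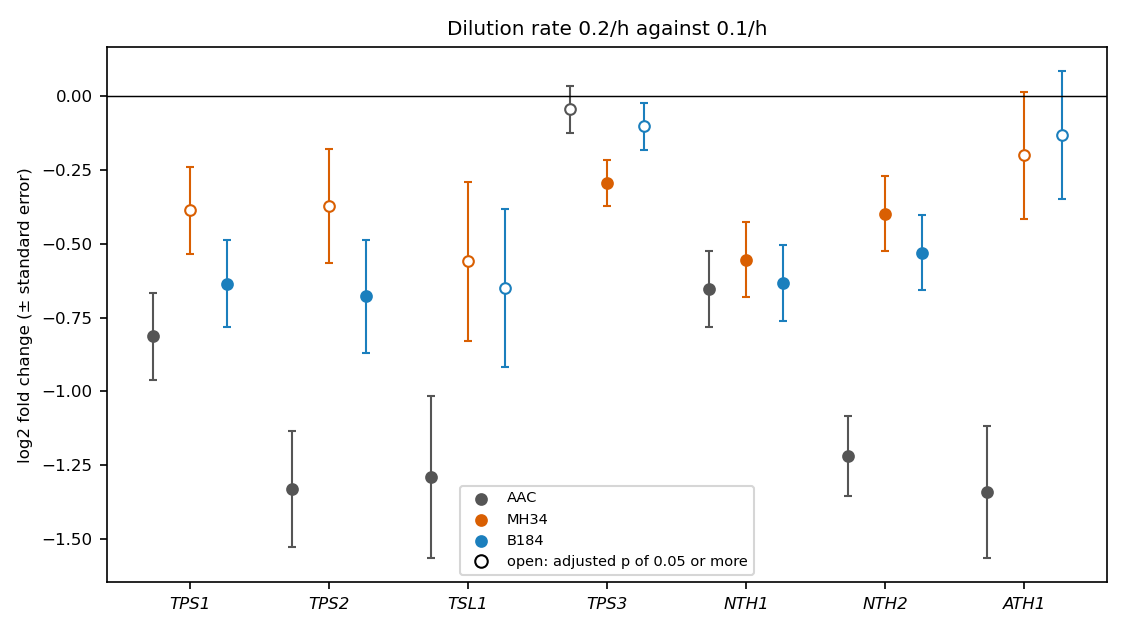
Log2 fold change of each gene at 0.2/h against 0.1/h within each strain (y axis, with SE bars), where filled points had an adjusted p below 0.05 and open points did not. All 21 values lie below 0, and for TPS2, TSL1, NTH2, and ATH1 the AAC points, from −1.34 to −1.22, lie lowest.

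Whether the strain difference changed with the rate was tested as an interaction. For MH34 against AAC, 3 genes passed (background, 26.6% higher and 53.1% in either direction): ATH1 with a difference of differences of 1.14 ± 0.31, TPS2 with 0.96 ± 0.27, and NTH2 with 0.82 ± 0.19, with edgeR adjusted p of 0.0137, 0.0143, and 0.00348. In each, the strain difference was larger at 0.2/h. For B184 against AAC, ATH1 had 1.21 ± 0.31 (edgeR adjusted p = 0.0599), NTH2 had 0.69 ± 0.18 (edgeR adjusted p = 0.0534), and 0 of the 7 passed in edgeR (background, 5.49% in either direction). DESeq2 called 2 of the 7, and 458 of the 6044 genes in either direction. The unadjusted edgeR p was below 0.05 for TPS2, NTH2, and ATH1, and the share of all genes at that threshold is not given here. NTH1 had 0.10 ± 0.18 in MH34 and 0.02 ± 0.18 in B184. The medians of the 7 differences of differences were 0.73 for MH34 and 0.64 for B184. Without replicate 1 of AAC at 0.1/h they were 1.03 and 0.90, and without its replicate 2 they were 0.16 and 0.07. In the fit without replicate 2 of AAC at 0.1/h, TPS2 had 0.51, NTH2 0.56, and ATH1 0.66 for MH34. TPS3 went in the other direction there with −0.37, and ATH1 had 0.73 for B184. Without replicate 2 of AAC at 0.2/h, ATH1 had an edgeR adjusted p of 0.0511 for MH34. All of these tests use the AAC libraries at 0.1/h and the cultures with added ethanol.

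B184 and MH34 were also compared with each other. At 0.1/h, TPS1 was higher in B184 by 0.38 ± 0.15 (edgeR adjusted p = 0.0423), and it was the only one of the 7 called higher (background, 29.1% higher), a call that each of the 4 fits without 1 library lost. At 0.2/h, the 7 values lay between 0.03 (NTH1) and 0.15 (TSL1), with SE from 0.08 to 0.27. None of the 7 was called there in edgeR, where 1 of the 6044 genes was called (background, 0.0165%). None had an unadjusted edgeR p below 0.05, and none was called by DESeq2, which called 2 of the 6044 genes. With SE of this size, smaller differences were not detectable. For the rate dependence of B184 against MH34, edgeR called 0 of the 7 and had 0 at an unadjusted p below 0.05 (background, 51.9% in either direction), and DESeq2 called 0.

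The balance within the gene pairs also moved with strain and rate. Per kilobase, TSL1 and TPS3 were at nearly equal levels in AAC at 0.2/h, with ratios of 1.05 and 1.04. In the evolved strains at 0.2/h TSL1 was the more abundant, with ratios of 1.92 and 1.58 for MH34 and of 1.82 and 1.92 for B184. At 0.1/h the ratio was 1.80 and 3.05 in AAC, 2.12 and 2.10 in MH34, and 2.61 and 2.85 in B184. The ratio of NTH2 to NTH1 was 0.263 and 0.242 in AAC at 0.2/h and between 0.351 and 0.451 in the other 10 libraries. The 4 synthesis genes summed to between 2.67 and 3.25 times the sum of the 3 trehalase genes in every library, a narrow range beside those of the single genes. No test was made of these ratios.

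**Figure D5:**
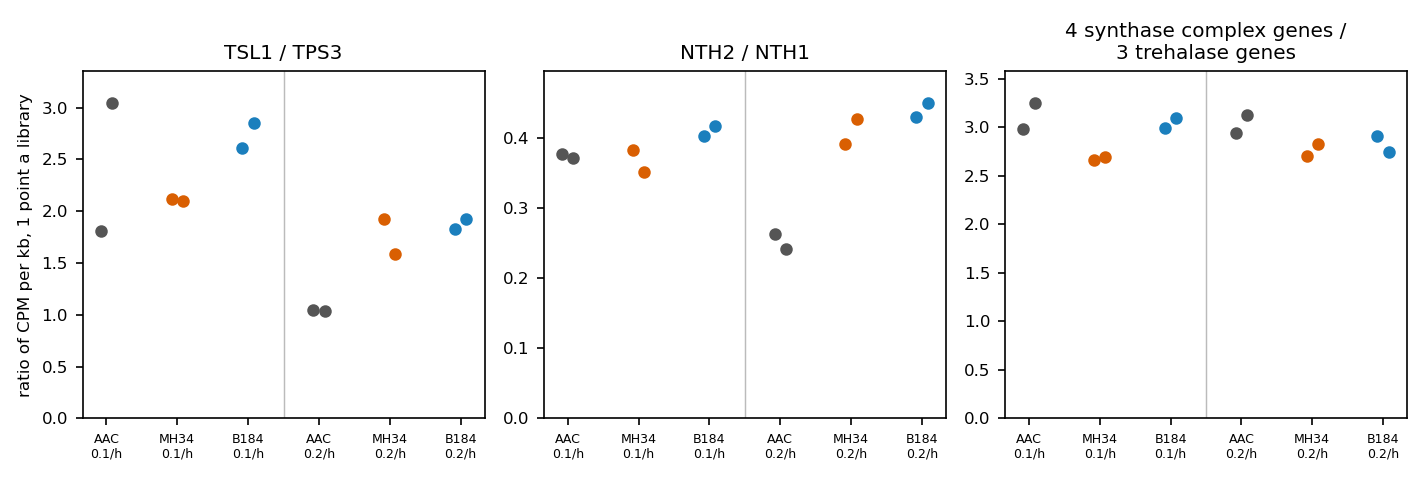
Ratios of CPM per kilobase (y axes, starting at 0) in each of the 12 libraries, grouped by strain and dilution rate, with 1 point per library. TSL1 over TPS3 and NTH2 over NTH1 were lowest in both AAC libraries at 0.2/h, while the ratio of the 4 synthesis genes to the 3 trehalase genes stayed between 2.67 and 3.25.

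The genes that supply the substrates of Tps1 were described from a fixed list of 6 hexose kinase, phosphoglucomutase, and UDP-glucose pyrophosphorylase genes. At 0.2/h, 3 were higher and 1 lower than AAC in MH34, beside 17.4% and 15.7% of all genes. In B184, 4 were higher and 1 lower, beside 18.4% and 17.7%. The medians were 1.06 and 1.26 on the log2 scale, beside −0.01 and −0.02 over all genes. UGP1, which makes UDP-glucose, was higher in all 4 comparisons with AAC, with fold changes at 0.1/h of 0.70 ± 0.14 (MH34) and 0.74 ± 0.14 (B184), and at 0.2/h of 0.71 (MH34) and 0.80 (B184). Without replicate 1 of AAC at 0.1/h the values at that rate were 0.50 and 0.54, and without replicate 2 they were 0.94 and 0.98, all of them called. It was at 257 to 350 CPM in the 4 AAC libraries and at 432 to 529 CPM in the 8 of the evolved strains, and it was not called between rates in any strain. HXK1, a hexokinase gene, was at 334 and 249 CPM in AAC at 0.2/h and at 1149 to 2247 CPM in the 4 evolved libraries. This was a rise of 2.48 in MH34 and 2.91 in B184. At 0.1/h its means were 1098 CPM in AAC, 1612 CPM in MH34, and 933 CPM in B184. The AAC libraries there had a standard deviation of 864 CPM. The glucokinase gene GLK1 was higher by 1.85 and 2.01 at 0.2/h. GLK1 lies on chromosome III, where 151 genes had a median fold change of 0.99 (MH34) and 0.96 (B184) at that rate, and the part of this shift in its value was not tested. PGM1, a phosphoglucomutase gene, was lower by 0.65 and 0.71, and PGM2, its paralog, was higher in B184 by 1.71 and had a value of 1.41 in MH34 that was not called (edgeR adjusted p = 0.0645).

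MAL11, whose product takes up trehalose and other α-glucosides, was higher in all 4 comparisons. It was at 55.4 and 60.4 CPM in AAC, 393 and 316 CPM in MH34, and 643 and 656 CPM in B184 at 0.2/h, a rise of 2.61 in MH34 (edgeR adjusted p = 0.00426) and of 3.49 in B184 (edgeR adjusted p = 0.00124). At 0.1/h it was at 91.7 and 257 CPM in AAC, 403 and 375 CPM in MH34, and 361 and 519 CPM in B184, and higher by 1.15 ± 0.42 and 1.33 ± 0.42. These values were 0.60 and 0.78 without replicate 1 of AAC and 2.08 and 2.26 without replicate 2, all of them called.

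Of 14 genes that regulate trehalase or the transcription of trehalose genes, 5 were higher and 0 lower than AAC at 0.2/h in each evolved strain, beside 17.4% of all genes higher in MH34 and 18.4% in B184. Among them were MSN4, the stress transcription factor gene (0.36 and 0.28 in MH34 and B184), DCS1 and DCS2, the genes of a decapping scavenger and its paralog (0.32 and 0.48, and 1.45 and 1.77), and GIS1, a transcription factor gene of the stationary phase (0.45 and 0.40). DCS1 and MSN4 were higher in all 4 comparisons with AAC. At 0.1/h, 3 were higher and 7 lower in MH34, beside 35.5% and 33.3% of all genes, and 3 were higher and 2 lower in B184, beside 16.5% and 20.4%. The median fold changes of the 14 at that rate were −0.30 in MH34 and 0.09 in B184. Without replicate 1 of AAC they were −0.38 and −0.03, and without replicate 2 they were −0.27 and 0.13. Among those called in MH34 at 0.1/h were the 14-3-3 gene BMH1 with a fold change of −1.15, the heat shock factor gene HSF1 with −0.91, BCY1, the gene of the inhibitory subunit of protein kinase A, with −0.76, and MSN4 with 0.87. In B184 the values were −0.29, −0.01, −0.45, and 0.85, of which that of HSF1 was not called. The paralogs of BMH1 and MSN4 went the other way in MH34. At 0.1/h, mean BMH2 was 487 CPM in AAC and 702 CPM in MH34, and mean MSN2 was 195 and 148 CPM. Without replicate 2 of AAC, BMH1 and BCY1 had −0.25 each in B184 and were not called.

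A list of 18 general stress response genes was counted in the same comparisons. At 0.2/h, 11 were higher and 0 lower in MH34, and 15 were higher and 0 lower in B184, with medians of 0.91 and 1.11, beside 17.4% and 18.4% of all genes higher and medians of −0.01 and −0.02. The largest rise of the list was that of SPI1, a cell wall protein gene, at 2.36 and 2.45. HSP12, a membrane-protecting heat shock protein gene, rose by 1.76 and 2.11. Mean TKL2 at 0.2/h was 15.8 CPM in AAC, 53.0 CPM in MH34, and 71.3 CPM in B184, a larger rise in B184 than that of HSP12. At 0.1/h, 4 were higher and 0 lower in each strain, beside 35.5% of all genes higher in MH34 and 16.5% in B184. The medians of the 18 at that rate were 0.29 in MH34 and 0.52 in B184. Without replicate 1 of AAC they were 0.02 and 0.06, and without replicate 2 they were 0.74 and 0.97. Between the slower and the faster rate, 15 of the 18 fell in AAC, 10 in MH34, and 7 in B184, and 0 rose in any strain. Of all genes, 35.5%, 13.3%, and 32.7% fell, and 32.7%, 13.5%, and 33.9% rose, in AAC, MH34, and B184. The median of the 18 between rates in AAC was −1.27. Without replicate 1 of AAC at 0.1/h it was −1.64, and without replicate 2 it was −0.71. Of the 7 glycogen genes, 6 were higher in MH34 and 7 in B184 at 0.2/h, beside 17.4% and 18.4% of all genes. Since the lists were chosen with earlier results of these data known, their counts are descriptions, and they do not show that the trehalose genes were controlled by the same factors. The fold changes at 0.2/h in MH34 and B184 are listed by copies of the stress response element core. They were 0.50 and 0.63 for TPS1 (6 copies), 0.62 and 0.69 for TPS2 (4), and 0.89 and 1.04 for TSL1 (3). With 2 copies each, NTH1 had 0.42 and 0.44, and TPS3 had 0.14 and 0.20, not called. ATH1 (1 copy) had 1.04 and 1.19, and NTH2 (0 copies) had 1.11 and 1.25. Copies nearer to the start codon than 201 bases were not counted. Differences between genes, and the relation of copies to fold changes, were not tested.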

How the data were processed

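RNA from 12 chemostat cultures was extracted with an RNeasy kit and sequenced by the authors as stranded, paired-end mRNA libraries. The authors mapped the reads to Ensembl R64-1-1, counted them with the nf-core pipeline, and deposited raw counts per gene, without normalization or pooling. The submitters' processing notes also name TopHat2 2.0.12, Cufflinks 2.2.1, and Subread 1.4.6. The strand setting and the treatment of reads that fit several genes are not given in the sources used here.

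The tests used the robust quasi-likelihood method of edgeR 4.0.16 (R 4.3.3), with TMM factors and a low-count filter by group (6044 of 7126 genes), in 1 fit of 12 libraries and 12 contrasts. P-values were adjusted over 6044 genes, with a threshold of 0.05. The median SE of a log2 fold change was about 0.10. P-values measure the spread between 2 cultures per group. Since transcripts were scaled to library size, they give shares of mRNA. The alternatives were other scalings, filters, and samples, DESeq2 1.42.0, a replicate block, a fold minimum, and each library left out.

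The genes named are the 7 members, the genes of 5 fixed lists, TPI1, the mating type markers, and, for TPS1, TSL1, and NTH1, the 4 other genes with the highest Pearson correlation of log2 CPM among those averaging 50 counts or more. Values of some listed genes are not reported here. Members and lists were chosen with earlier results of these data known. Names, coding lengths, and sequences are from RefSeq's R64, the assembly of the counts. Tables and figures were made in Python 3.11.15 with pandas 2.3.3 and matplotlib 3.10.9.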

Additional observations from a re-analysis of the deposited data

Results flagged for a closer look

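Of the 7 trehalose genes, 3 differed between the dilution rates in how MH34 compared with AAC, by the test of the interaction itself. The difference of differences was 1.14 on the log2 scale for ATH1, 0.96 for TPS2, and 0.82 for NTH2, each larger at the faster rate. In edgeR's fit 53.1% of all genes passed this test in either direction, so passing it was not particular to the trehalose genes. For ATH1 the value lay between 0.66 and 1.49 when 1 library was left out, for TPS2 between 0.51 and 1.30, and for NTH2 between 0.56 and 1.03. No group had enough samples for a check of single outlying libraries.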

How the results depend on the processing

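Of 1225 values of single genes under the alternatives, 1071 kept their direction and their side of the threshold, 65 fell below it, 59 rose past it, 26 moved across 0 uncalled, and 4 reversed. The 4 reversals were at 0.1/h against AAC: −0.20 for TPS1 in MH34 and −0.30 for TPS2 in B184 without replicate 1 of AAC, and 0.37 and 0.45 for ATH1 in MH34 and B184 without replicate 2 of AAC. With 1 library left out, TPS1 in MH34 ranged from −0.20 to 0.41, TPS2 in B184 from −0.30 to 0.48, and ATH1 from −0.45 to 0.37 in MH34 and from −0.37 to 0.45 in B184.

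Of the counts of genes called among the 7, these moved by over 1.5 times. When calls also needed a log2 fold change of 1 or more in size, which asks for more by construction, they were 0 for MH34 and 0 for B184 against AAC at 0.1/h, 2 and 3 at 0.2/h, 0 for B184 against MH34 at 0.1/h, 0 for the rate in MH34 and 0 in B184, and 1 for the rate dependence of MH34. Over 6044 genes, that minimum left 1200 and 405 calls in either direction at 0.1/h, 424 and 473 at 0.2/h, then 808, 178, 1026, and 958. For MH34 against AAC at 0.1/h, the count of 2 became 1 with RLE size factors, with DESeq2, and with only the compared groups fitted. Over all genes, 4160, 3907, and 3812 were called in these fits, beside 4160 with the settings above. For B184 against AAC at 0.1/h, the count became 1 with only the compared groups, where 1149 of all genes were called, beside 2230. For B184 against MH34 at 0.1/h it became 3 with library totals, 2 with DESeq2, 5 with only the compared groups, and 3 without both libraries of AAC at 0.1/h, an alternative added after the data were seen. Of all genes, 3880, 3552, 4322, and 4039 were called in these fits, beside 3784. For the rate in MH34 the count became 6 with only the compared groups and 6 without the AAC libraries at 0.1/h. There 1914 and 2190 of all genes were called, beside 1619. The rate dependence of MH34 gave 5 with library totals, where 3430 of all genes were called, beside 3212. That of B184 against AAC gave 2 with library totals, 2 with DESeq2, and 1 without the robust option, with 449, 458, and 360 of all genes called, beside 332. The rate dependence of B184 against MH34 gave 2 with only the compared groups and 2 without the AAC libraries at 0.1/h. There 3589 and 3465 of all genes were called, beside 3134. The cause was not tested. Library totals moved the median of all genes by up to 0.22 (rate dependence of MH34).

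With 1 library left out, the counts ranged from 1 to 6 (MH34) and 0 to 7 (B184) against AAC at 0.1/h, 1 to 3 and 3 to 3 at 0.2/h, and 0 to 0 for B184 against MH34 at 0.1/h. They ranged from 6 to 6 for the rate in AAC, 0 to 2 in MH34, and 3 to 4 in B184, and from 2 to 6 and 0 to 5 for the rate dependence of MH34 and B184 against AAC. A group of 1 library is then assumed to vary like the others. The number of calls over all genes changed in these fits as well.

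Correlations of replicate deviations between groups ran from −0.30 (AAC at 0.1/h and at 0.2/h) to 0.45 (AAC and MH34 at 0.2/h). A replicate block over all 6 groups changed no count of calls, for example 6 for MH34 at 0.2/h. Pairing of the cultures in only some of the groups was not tested. Leaving out the genes of chromosome III, also added later, kept every count within 1.5 times.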

Other observations

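The genes whose log2 CPM followed a trehalose gene most closely over the 12 libraries, out of 5543 genes, were the following, given as a description since all libraries share strains, rates, and depth. For TPS1 they were PSK1, a gene of a PAS domain kinase (Pearson r 0.987), GDB1, the glycogen debranching enzyme gene (0.986), RTN2, a reticulon gene (0.986), and YKL162C (0.977). For TSL1 they were GDB1 (0.990), BDH2, DCS2, and PNC1, a nicotinamidase gene, with r from 0.986 to 0.988 for the last 3. For NTH1 they were HEF3, a gene of a translation elongation factor (0.986), YKL162C (0.984), YDL199C (0.976), and AMS1, the vacuolar mannosidase gene (0.975).

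Among the 7 genes themselves, TPS1 and TSL1 followed each other most closely (r 0.974), and TPS3 followed the others least, with r from 0.531 with TPS2 to 0.810 with NTH1. HXK2, the hexokinase gene of fast growth, rose with the dilution rate in all 3 strains, by 1.39 in AAC, 0.64 in MH34, and 1.25 in B184. Of the 7 trehalose genes, 0 rose in any strain, beside 32.7% (AAC), 13.5% (MH34), and 33.9% (B184) of all genes.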
